A study of Rattus norvegicus with 2 samples.

Results

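Circular RNAs (circRNAs) of nuclear genes that encode mitochondrial proteins were examined in 2 libraries labelled as from rats with tumour cells in the tibia, a model of bone cancer pain. A circRNA is a closed loop made when a downstream splice site is joined to an upstream one of the same transcript, and it is counted by reads across that back-splice junction. Members were matched by the host gene symbol alone, and the rule used none of their values. The members and their classes were nevertheless chosen with earlier results of these data known. They were the mitochondrial ribosomal proteins, the subunits and assembly factors of the respiratory chain and ATP synthase, the translocases of import, the mitofusins, the MICU regulators of calcium uptake, the acyl-CoA dehydrogenases and carnitine palmitoyltransferases, enzymes of pyruvate oxidation and the citric acid cycle, AFG3L proteases, and OPA1, DNM1L, PITRM1, YME1L1, LONP1, DLAT and OGDH. The rule found 150 circRNAs of 61 host genes, among 15107 circRNAs of 4992 host genes with 1 named host, and 17260 circRNAs in all. No circRNA was listed for OPA1, nor for any of the 5 isocitrate dehydrogenase (IDH) genes. AFG3L1P and SDHAP1, which the rule also takes, are pseudogenes.

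Per the labels, the bone cancer pain group received live cells of the Walker256 line, a breast carcinoma of the rat grown as ascites in SD rats, placed in the tibial marrow. The control group received Walker256 cells boiled for 20 minutes and the same surgery, so both groups had tumour cell material placed in bone. Each group had 3 rats, killed 21 days later; the sources used here give neither the age of the rats nor whether RNA was pooled. The labels name the RNA source as hydrostatic cancer cells in one field, and in another as cells from the spinal cord of the same rats. There was 1 library per group, so no test between conditions was possible, and each ratio below compares 2 libraries, bone cancer pain over control.

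Circular junction reads came to 159941 for control and 151685 for bone cancer pain. Intervals of reads, read shares and ratios are exact 95% intervals that cover counting error only. Amplified reads without molecular identifiers are not independent molecules. The table carries human identifiers, and its genome build is not named. A rat gene of the same name was found for 59 member host genes, of which 3 had the chromosome number of that rat gene, and 3 member circRNAs were on chromosome 21, which the rat lacks. The labelled species is rat, and whether the libraries are of that species, with names and positions carried over from human, or not, cannot be told from the table. Positions are therefore printed as the table has them, and the sample descriptions here are those of the labels. Of 32 markers of neurons, oligodendrocytes, astrocytes, microglia and epithelial or carcinoma cells, only the myelin gene MBP had a listed circRNA (2 control and 3 bone cancer pain reads). All 10 neuronal markers, among them RBFOX3, SNAP25 and SYT1, and all 6 epithelial markers, among them EPCAM and KRT8, had none. Their linear mRNAs are not measured here, so the labelled tissue could not be checked further. In such libraries fewer cells of a type and less RNA per cell cannot be told apart.

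Mitochondria carry a small genome of their own, but nearly all of their proteins are encoded in the nucleus, made in the cytosol and brought in by the TOMM and TIMM translocases. Inside, the citric acid cycle and fatty acid oxidation supply electrons to complexes I to IV of the respiratory chain, and ATP synthase uses the resulting proton gradient. The organelles divide through DNM1L and fuse through MFN1, MFN2 and OPA1, and they are abundant in neurons, whose axons and synapses need much ATP. Junction reads of a host gene measure its circRNAs, not its mRNA or protein.

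The share of genes with a circRNA was lower for the mitochondrial ribosome than over all genes. The proteases and calcium uptake had higher shares, but of only 5 and 3 symbols. The rule names PITRM1, YME1L1 and LONP1 singly, and members were chosen with earlier results known. These 2 shares are therefore not read as a difference from all genes. The intervals of the other classes overlapped that of all genes. The symbols of rat protein-coding genes in the RefSeq table (assembly GRCr8) served as the list of each family, since rat is the labelled species, leaving out copies named by adding L and a number to another symbol. Of 252 symbols that the rule matches, 59 had a circRNA (23.4%, interval 18.3 to 29.1), beside 4542 of 19672 named rat protein-coding genes (23.1%, 22.5 to 23.7). The share was 12.7% for the mitochondrial ribosome (10 of 79, 6.24 to 22.0), an interval that lies below that of all genes, 19.1% for complex I (9 of 47, 9.15 to 33.3) and 11.1% for complex IV (3 of 27, 2.35 to 29.2). ATP synthase had 22.2% (4 of 18, 6.41 to 47.6), import 23.1% (6 of 26, 8.97 to 43.6), and complexes II and III had 2 of 8 each (3.19 to 65.1). It was 46.2% for fatty acid oxidation (6 of 13, 19.2 to 74.9) and pyruvate and the citric acid cycle had 7 of 14 (23.0 to 77.0). Of the small classes, calcium uptake had 3 of 3 (29.2 to 100), the proteases 4 of 5 (28.4 to 99.5) and fusion and fission 3 of 4 (19.4 to 99.4).

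**Figure D1:**
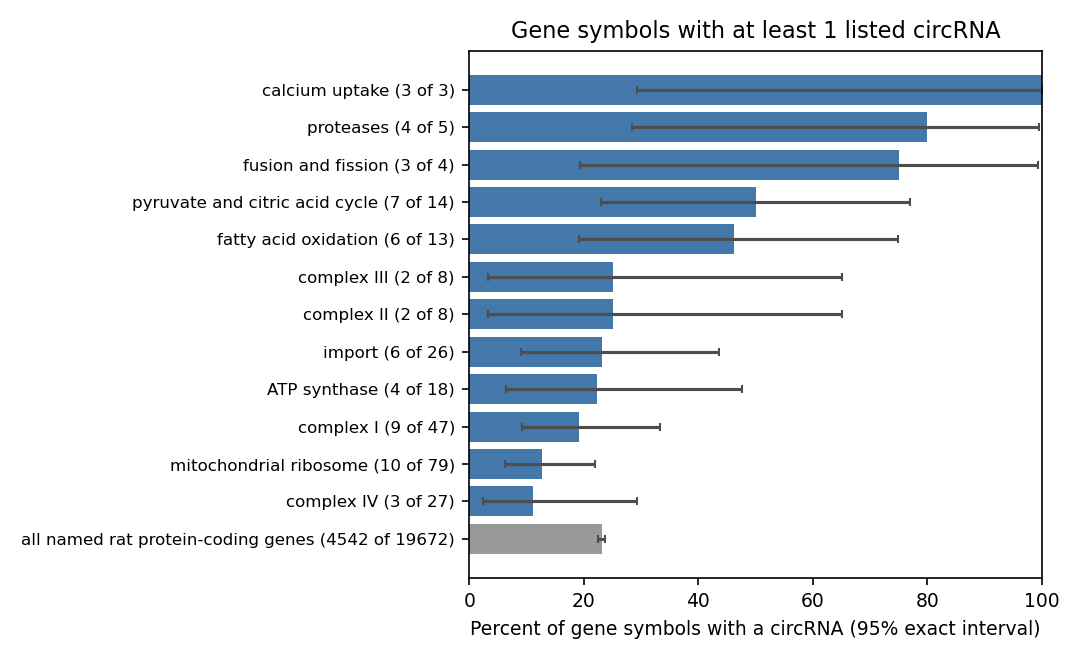
Horizontal bars give the percent of gene symbols in each family that had at least 1 listed circRNA, with exact 95% intervals; the numbers in parentheses are symbols with a circRNA and symbols in the rat gene table. The mitochondrial ribosome (12.7%) and complex IV (11.1%) have the shortest bars, and the grey bar is the share over all named protein-coding genes (23.1%).

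Member circRNAs took a smaller share of the bone cancer pain library than of the control library. They had 1516 control reads (Poisson interval 1441 to 1594), which was 0.948% of that library (0.901 to 0.997), and 1139 bone cancer pain reads (1074 to 1207), which was 0.751% (0.708 to 0.796). The ratio of the shares was 0.79 (0.73 to 0.86), beside 0.99 (0.99 to 1.00) for all circRNAs with 1 host gene. A single circRNA of SUCLG2 accounted for 146 control and 21 bone cancer pain reads, and without it the ratio was 0.86 (0.79 to 0.93). With 1 library per group, a difference of this size has no replicate check.

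The lower share was not spread evenly over the classes. In RPM, the deposited unit, which scales junction reads to the same total in each library, the pyruvate and citric acid cycle genes had the highest control level, 2519.7, against 1522.9 for bone cancer pain. The reads were 403 (365 to 444) and 231 (202 to 263), a ratio of 0.60 (0.51 to 0.71). The fatty acid oxidation genes stood at 318.9 and 125.3 RPM, with 51 (38.0 to 67.1) and 19 (11.4 to 29.7) reads, a ratio of 0.39 (0.22 to 0.68). Fusion and fission genes stood at 431.4 and 257.1 RPM (69 and 39 reads; 0.60, 0.39 to 0.90). Complex I stood at 1444.3 and 1127.3 RPM (231 and 171 reads; 0.78, 0.64 to 0.96). For these 4 classes the interval excluded 1. Without the circRNA with the most reads it included 1 for the pyruvate and citric acid cycle (0.86, 0.71 to 1.04) and for fusion and fission (0.58, 0.26 to 1.21). It still excluded 1 for fatty acid oxidation (0.24, 0.09 to 0.55) and complex I (0.68, 0.53 to 0.87). For fatty acid oxidation this rested largely on circRNAs listed in 1 library, with reads below the lowest listed value of 2 counted as 0. Of its 14 circRNAs, 2 were listed in both, 1 of CPT1A (0.63, 0.28 to 1.36) and 1 of ACADM (0.30, 0.031 to 1.58). Both of these intervals include 1. With the import symbol TIMMDC1 counted under complex I, that class was at 0.89 (0.77 to 1.03).

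The other classes had intervals that included 1. The mitochondrial ribosome stood at 1481.8 and 1371.3 RPM (237 and 208 reads; 0.93, 0.76 to 1.12). The proteases stood at 675.3 and 613.1 RPM (0.91, 0.68 to 1.21) and ATP synthase at 512.7 and 395.6 RPM (0.77, 0.54 to 1.09). The import symbols stood at 1169.2 and 1279.0 RPM (1.09, 0.89 to 1.34), and calcium uptake at 418.9 and 342.8 RPM (0.82, 0.56 to 1.19). Complexes II (0.74, 0.32 to 1.65), III (1.22, 0.70 to 2.14) and IV (0.83, 0.50 to 1.38) had from 12 to 38 reads per library, too few to show a difference of this size. Complexes I to IV and ATP synthase together had 394 and 303 reads (0.81, 0.70 to 0.94).

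**Figure D2:**
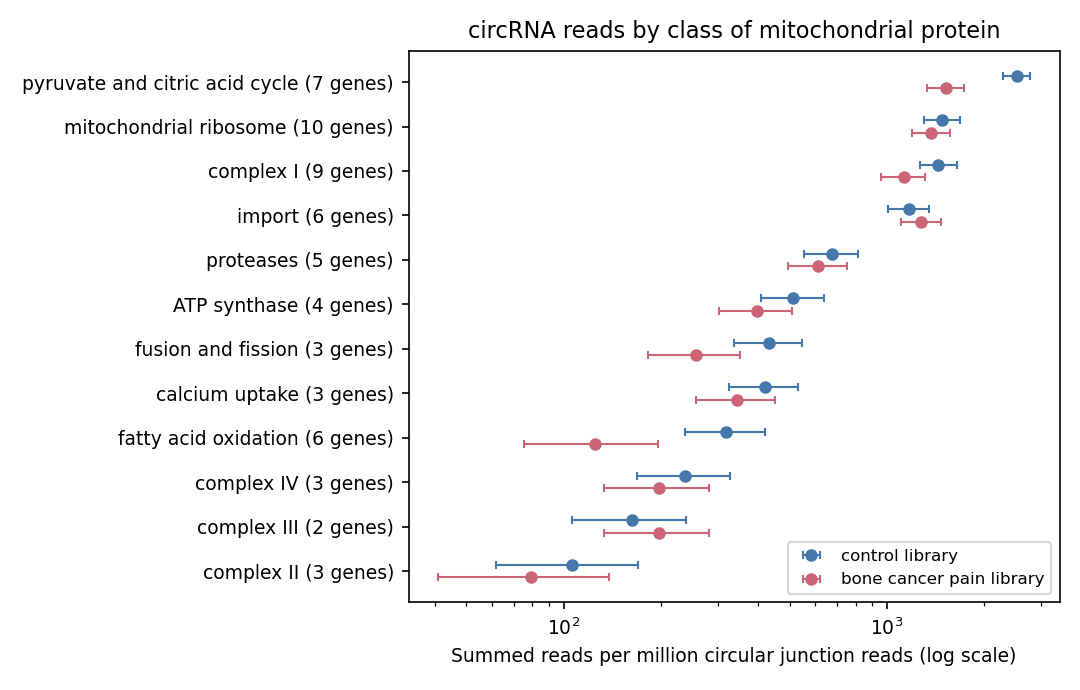
Points give the summed RPM of each class in the control library (blue) and the bone cancer pain library (red) on a log axis, with exact Poisson 95% intervals. The intervals are apart for the pyruvate and citric acid cycle genes and for fatty acid oxidation; the import and complex III points are higher in the bone cancer pain library.

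A host gene was called by the size of its ratio alone (at least 2, or at most 0.5), after adding 0.5 reads to either library, and only with 10 or more reads over both. Of the 61 member host genes 33 had 10 or more reads, and the other 28 were not called. Of the 33, 4 were higher in bone cancer pain by 2-fold or more (12.1%), 6 were lower by as much (18.2%) and 23 lay between. Over all 3037 host genes with 10 or more reads, 13.3% were higher and 14.2% lower, so the members' shares of calls were near the background. The median log2 ratio was -0.26 for the members and -0.03 for all host genes. The interval of the members' median, -0.72 to 0.04, comes from the ranked values of the 33 genes. It describes spread among genes, not counting error or variation between animals, and is no test against all host genes. Of the 33 members 22 (66.7%) were below 0, beside 51.2% of all host genes. The interval excluded 1 for 5 of the 6 lower and 2 of the 4 higher members, with no such count over all host genes given here. Of single circRNAs, 50 of the 150 had 10 or more reads. In these, 7 were higher and 9 lower, where 16.8% of all such circRNAs were higher and 16.7% lower. The interval excluded 1 for 7 of the 9 lower and 4 of the 7 higher member circRNAs. Over all such circRNAs it did so for 512 of 833 lower and 518 of 838 higher.

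**Figure D3:**
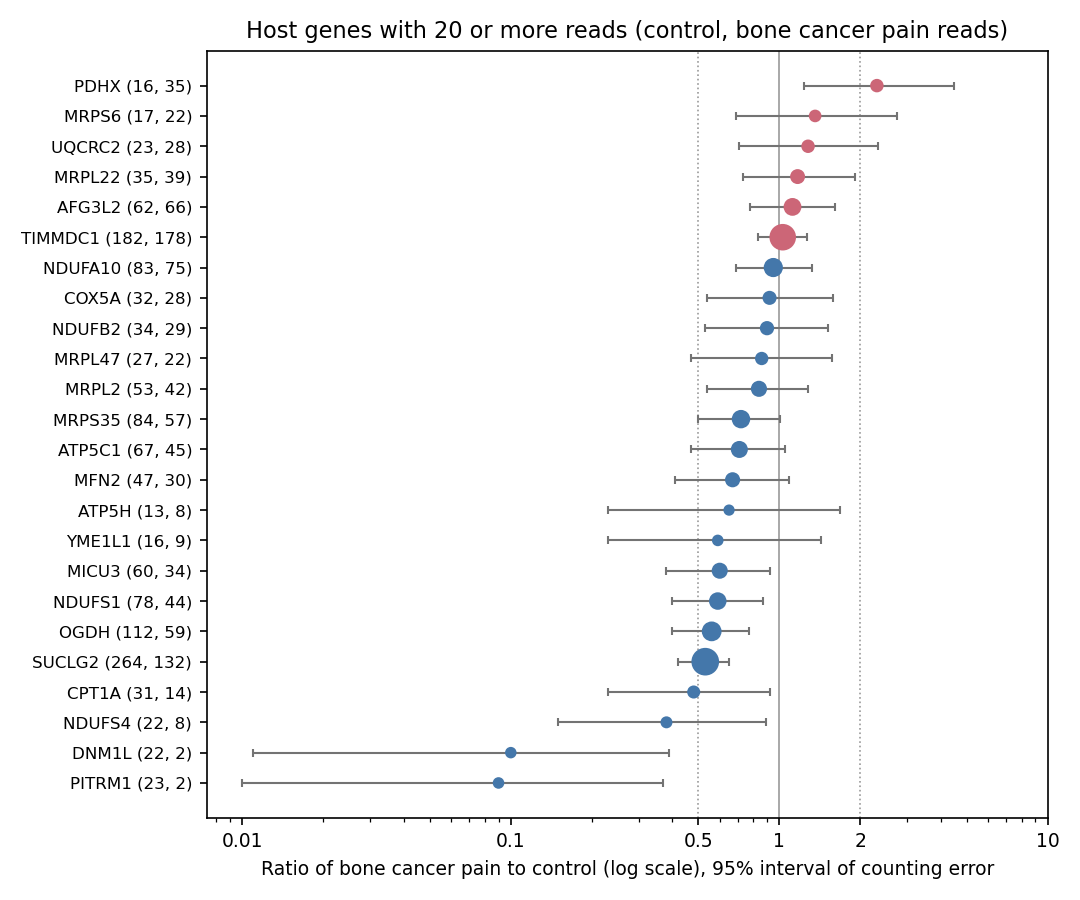
Points give the ratio of bone cancer pain to control for the reported member host genes with 20 or more reads on a log axis, with exact 95% intervals of counting error; the area of a point grows with its reads, and the numbers in parentheses are control and bone cancer pain reads. PDHX lies to the right of 2, and CPT1A, NDUFS4, DNM1L and PITRM1 to the left of 0.5 (dotted lines).

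Among the pyruvate and citric acid cycle genes, SUCLG2, the GTP-forming beta subunit of succinate-CoA ligase, had the most reads of all member host genes, 264 for control and 132 for bone cancer pain (0.53, 0.42 to 0.65). These reads lay on 8 circRNAs with unlike ratios. The shortest of those that begin at position 67546222 (hsa_circ_0003060, chr3:67546222-67548719) had 146 and 21 reads (0.15, 0.091 to 0.24). The next longer one (hsa_circ_0004276, chr3:67546222-67559327) had 63 reads in each library (1.05, 0.73 to 1.52). Another form from this end (hsa_circ_0008490, chr3:67546222-67571058) had 22 and 11 (0.53, 0.23 to 1.13), and the longest with 20 or more reads (hsa_circ_0005657) had 7 and 18 (2.71, 1.08 to 7.68). At this end the shortest form thus held 60.3% of control reads (53.9 to 66.5) and 18.6% in bone cancer pain (11.9 to 27.0). The form of hsa_circ_0004276 went from 26.0% (20.6 to 32.0) to 55.8% (46.1 to 65.1). Without hsa_circ_0003060, SUCLG2 had 118 and 111 reads (0.99, 0.76 to 1.30), and the whole class had 257 and 210 (0.86, 0.71 to 1.04), an interval that includes 1.

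**Figure D4:**
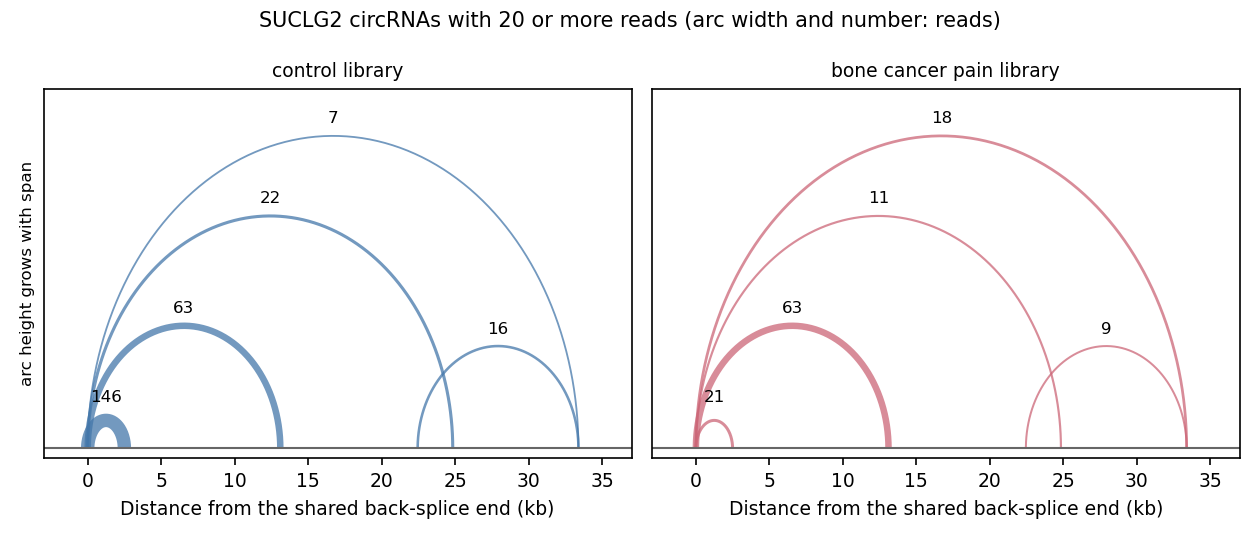
Arcs join the ends of the 5 SUCLG2 circRNAs with 20 or more reads, by distance in kb from the end that 4 of them share; line width and the printed number give the reads in the control library (left, blue) and the bone cancer pain library (right, red). The innermost arc thins from 146 to 21 reads, the next keeps 63, and the outermost goes from 7 to 18.

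Another SUCLG2 circRNA (hsa_circ_0006429) had 16 and 9 reads (0.59, 0.23 to 1.43). At another site of the gene, 2 junctions with the same lower position and upper ends 3 bp apart had 3 and 7 reads (hsa_circ_0005688) and 3 and 3. The partner subunits had few reads: SUCLA2, the ATP-forming beta subunit, had 2 control reads, and SUCLG1, the alpha subunit that both share, had 2 bone cancer pain reads. OGDH, the first enzyme of the oxoglutarate dehydrogenase complex, had 112 and 59 reads (0.56, 0.40 to 0.77) on 7 circRNAs. One (hsa_circ_0005004, chr7:44714010-44714867) had 50 and 16 (0.34, 0.18 to 0.60), and another (hsa_circ_0003340, chr7:44684926-44687358) 50 and 32 (0.67, 0.42 to 1.07). Both main OGDH forms had fewer reads in the bone cancer pain library.

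PDHX, the protein that anchors the E3 enzyme in the pyruvate dehydrogenase complex, went the other way, with 16 and 35 reads (2.31, 1.24 to 4.46). This rested on 1 circRNA (hsa_circ_0021712), which had 2 and 25 reads (13.2, 3.29 to 114.8). The other PDHX circRNAs together had 14 and 10 reads (0.75, 0.30 to 1.82), and hsa_circ_0000290 of this gene had 8 and 2 reads (0.26). DLAT, the acetyltransferase core of the complex, had 7 control reads on 2 circRNAs and none in the other library, and PDHB had 2 and 3 reads. The pyruvate dehydrogenase genes therefore showed no common direction.

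In the respiratory chain, NDUFA10, an accessory subunit of complex I, had 83 and 75 reads (0.95, 0.69 to 1.32), of which hsa_circ_0001118 (chr2:240929491-240946787) had 65 and 64. A longer form from the same end (hsa_circ_0001119) had 16 and 5 (0.33, 0.094 to 0.94). NDUFS1, the large iron-sulfur core subunit, had 78 and 44 reads (0.59, 0.40 to 0.87) on 9 circRNAs, the most for any member gene. Its main form (hsa_circ_0002431, chr2:206992521-206994966) had 69 and 25 (0.38, 0.23 to 0.61). The remaining 8 had few reads, 9 and 19 in sum (2.23, 0.96 to 5.59). Their ratio was above 1, but its interval includes 1.

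NDUFS4, an accessory subunit whose loss causes Leigh-like disease, had 22 and 8 reads (0.38, 0.15 to 0.89). The circRNA hsa_circ_0005593 gave 12 and 8 of them (0.70, 0.25 to 1.87), and a junction with no circBase identifier gave 10 control reads with none listed in the other library. A further junction, which the table names with NDUFS4 and several small RNAs and the rule leaves out, had 5 bone cancer pain reads; with it NDUFS4 was at 0.62 (0.29 to 1.29) and no longer 2-fold lower. NDUFB2 had 34 and 29 reads on 1 circRNA (hsa_circ_0007518, chr7:140402666-140404763; 0.90, 0.53 to 1.52). NDUFA8 had 7 and 3 reads and passed the 2-fold mark (0.45) with an interval from 0.075 to 1.98. All 5 complex I genes with 10 or more reads had a log2 ratio below 0.

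In complex II the flavoprotein subunit SDHA had 9 and 8 reads (0.94, 0.31 to 2.74) on 4 junctions, none in circBase, the catalogue of published circRNAs. In complex III the core subunit UQCRC2 had 23 and 28 reads (1.28, 0.71 to 2.33). Its 2 circRNAs share their upper end: the longer (hsa_circ_0005690) had 8 and 17 reads and the shorter (hsa_circ_0006485) 15 and 11. In complex IV the heme-free subunit COX5A had 32 and 28 reads (0.92, 0.54 to 1.58). Its circRNAs hsa_circ_0007840 (9 and 14) and hsa_circ_0005725 (14 and 14) were listed in both libraries, while hsa_circ_0006810, which spans both, had 9 control reads and none listed in the other. COX10, which makes heme A for complex IV, had 6 control reads only. In ATP synthase, ATP5C1, the rotating gamma subunit, had 67 and 45 reads on 1 circRNA (hsa_circ_0007292, chr10:7839010-7844817; 0.71, 0.47 to 1.05). ATP5H, a stalk subunit, had 13 and 8 (hsa_circ_0006942; 0.65, 0.23 to 1.69). SDHA, COX5A, ATP5C1 and ATP5H each had a ratio below 1, with an interval that includes 1, and none passed the 2-fold mark.

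The proteins of the mitochondrial ribosome translate the few mRNAs of the mitochondrial genome. Of 10 host genes 8 had 10 or more reads, with 4 log2 ratios below 0 and 4 above and a median of 0.01. MRPS35, a small subunit protein, had 84 and 57 reads (0.72, 0.50 to 1.01), most on hsa_circ_0000384 (chr12:27867713-27877119; 66 and 51). MRPL2 had 53 and 42 on 1 circRNA (hsa_circ_0001608, chr6:43023283-43024183; 0.84, 0.54 to 1.28). MRPS6 had 17 and 22 reads (1.36, 0.69 to 2.74), of which hsa_circ_0005076 (chr21:35475134-35497780) had 15 and 19. MRPL4 had 6 and 12 reads and passed the 2-fold mark (2.11, 0.73 to 6.85), 3 of the 12 on a junction listed in that library alone.

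For 2 ribosomal genes the sum held circRNAs of 1 shared end with opposite ratios. MRPL22 had 35 and 39 reads (1.17, 0.73 to 1.91). Its shorter form (chr5:154330381-154339609) had 29 and 14 (0.51, 0.25 to 0.99) and its longer form (chr5:154330381-154346797) had 6 and 25 (4.39, 1.76 to 13.1); neither had a circBase identifier. The longer form took 17.1% of control reads (6.56 to 33.6) and 64.1% in bone cancer pain (47.2 to 78.8). MRPL47 had 27 and 22 reads (0.86, 0.47 to 1.57). Here the longer form (hsa_circ_0005292, chr3:179310432-179319578) had 25 and 12 (0.51, 0.23 to 1.05). The shorter (hsa_circ_0005297) had 2 and 8 (4.22, 0.84 to 40.77), and both intervals include 1. The shorter form's share was 7.41% (0.910 to 24.3) and 40.0% (19.1 to 63.9), with overlapping intervals. The form with the larger share in bone cancer pain than in control was thus the longer in MRPL22 and, less clearly, the shorter in MRPL47.

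**Figure D5:**
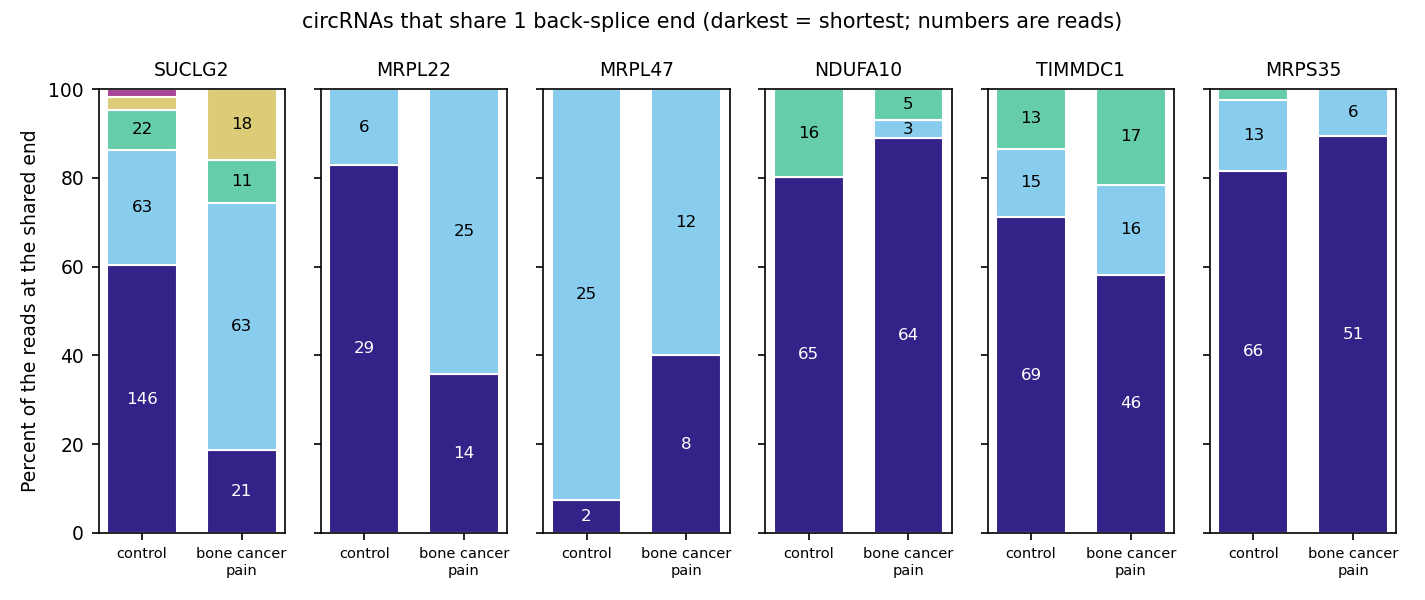
Stacked bars give, for the 6 member genes with 2 or more circRNAs of 10 or more reads at the same lower end (1 of 2 such ends for TIMMDC1), the percent of the reads at that end on each circRNA in each library; the shortest form is darkest and at the bottom, and numbers are reads. The dark share drops in SUCLG2 (60.3% to 18.6%) and MRPL22 and grows in MRPL47, while NDUFA10 and MRPS35 differ less.

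Of the import symbols, TIMMDC1 held nearly all reads, 182 and 178 (1.03, 0.83 to 1.27), and all 6 of its circRNAs were listed in both libraries. Despite its symbol, its protein is known as an assembly factor of complex I. The most abundant form (hsa_circ_0008394, chr3:119222379-119222868) had 76 and 89 reads (1.23, 0.90 to 1.70), and one that shares its upper end (hsa_circ_0001329, chr3:119219542-119222868) had 69 and 46 (0.70, 0.47 to 1.04). Longer forms had 15 and 16 (hsa_circ_0006884, chr3:119219542-119232566) and 13 and 17 (hsa_circ_0066874, chr3:119219542-119236162). With TIMMDC1 counted under complex I, that class was at 0.89 (0.77 to 1.03), an interval that includes 1. The 5 translocase genes proper, TIMM9, TIMM22, TIMM44, TOMM40 and TOMM70A, had 5 control and 16 bone cancer pain reads in sum (3.37, 1.18 to 11.8), and each had under 10 reads. In 4 of them reads were listed in the bone cancer pain library alone, at 2 to 5 reads each. Any control reads of these 4 genes below the lowest listed value of 2 were counted as 0, so the ratio may be overstated. Its interval does not cover this. TIMM44, which was listed in both libraries, had 5 and 3 reads (0.63, 0.098 to 3.25).

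Among the genes of fusion and fission, DNM1L, the dynamin-related GTPase that divides mitochondria, had 22 control and 2 bone cancer pain reads (10.4-fold lower, 2.56 to 91.5). The control reads were spread over 4 circRNAs with 7, 6, 5 and 4 reads, and only the last, hsa_circ_0025850, was listed in the other library, with 2. That is the lowest value listed. Any reads of the other circRNAs below this floor were counted as 0, so the fold may be overstated. MFN2, an outer membrane fusion GTPase, had 47 and 30 reads (0.67, 0.41 to 1.09), of which hsa_circ_0006470 (chr1:12061458-12062160) had 47 and 27 (0.61, 0.36 to 0.99). Its relative MFN1 had 7 bone cancer pain reads and none listed in the control. MFN1 had too few reads for a call.

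The MICU proteins gate the mitochondrial calcium uniporter. MICU3, the form best known from neurons, had 60 and 34 reads (0.60, 0.38 to 0.92). Most lay on 2 circRNAs that share their upper end, one without a circBase identifier (chr8:16935292-16948093; 36 and 16 reads; 0.47, 0.24 to 0.87) and hsa_circ_0003361 (chr8:16921593-16948093; 18 and 13; 0.76, 0.34 to 1.64). Both ratios were below 1, with an interval that excluded 1 for the first.

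All fatty acid oxidation genes but ACAD10, which had 3 reads in each library, had fewer reads in the bone cancer pain library. CPT1A, which loads long-chain fatty acids onto carnitine at the outer membrane, had 31 and 14 reads (0.48, 0.23 to 0.92) on 6 circRNAs. The main one (hsa_circ_0023276, chr11:68571468-68575106) had 20 and 12 (0.63, 0.28 to 1.36), and 4 others were listed in the control library alone with 11 reads in sum. ACADM, the medium-chain acyl-CoA dehydrogenase, had 11 and 2 reads (0.19, 0.021 to 0.88). ACADVL, ACAD9 and CPT1C had 2 control reads each and none listed in the other library; ACAD9 is also known as a complex I assembly factor, and CPT1C as a protein of the endoplasmic reticulum. Without CPT1A the class had 20 and 5 reads (0.26, 0.08 to 0.72). Of the 14 circRNAs of the class, 2 were listed in both libraries. Reads below the listing floor are not in these sums.

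Among the proteases, PITRM1, which degrades presequences in the matrix, had 23 and 2 reads (10.9-fold lower, 2.69 to 95.4). Its hsa_circ_0017510 had 14 and 2 (0.15), and the other 2 circRNAs were listed in the control alone. As for DNM1L, reads below the listing floor were counted as 0, so the fold of PITRM1 may be overstated. AFG3L2, a subunit of the m-AAA protease, had 62 and 66 reads (1.12, 0.78 to 1.61) on 7 circRNAs. Its main form (hsa_circ_0006400, chr18:12366964-12371690) had 27 and 32 (1.25, 0.73 to 2.17), followed by hsa_circ_0006937 (16 and 10) and hsa_circ_0005268 (11 and 10). The i-AAA protease YME1L1 had 16 and 9 (0.59, 0.23 to 1.43). LONP1, a matrix protease, had 2 and 9 (4.74, 0.98 to 45.1) over 4 junctions, and AFG3L1P had 5 and 7 with no junction listed in both. The class sum followed AFG3L2, without which it was at 0.62 (0.37 to 1.02).

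Such unequal ratios within a gene were set beside the rest of the table. In 13 member genes 2 or more circRNAs had 10 or more reads, and in 2 of them (15.4%), PDHX and SUCLG2, 1 circRNA was at least 2-fold higher and another at least 2-fold lower; this was so for 11.8% of 1116 such host genes in all. Among 21 pairs of member circRNAs that share 1 end, each with 10 or more reads, the ratios were at least 2-fold apart in 11 (52.4%) and at least 4-fold apart in 6 (28.6%). Over all 1943 such pairs the shares were 44.0% and 18.1%. The pairs lay in 9 genes and are not independent, since 1 circRNA enters several pairs. SUCLG2 alone gave 7 of the pairs and 4 of the 6 at 4-fold, and without it 2 of 14 were 4-fold apart and 5 of 14 were 2-fold apart. Without SUCLG2 the members' counts were no higher than the background shares.

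In features that the rule did not use, member circRNAs resembled the others or differed slightly. Their median span between the ends was 4156 bp (quartiles 1508 and 12967), beside 5829 bp for the 14957 other circRNAs with 1 host gene. A circBase identifier was carried by 99 of 150 (66.0%, 57.8 to 73.5), beside 58.5% (57.7 to 59.3) of the others. The mean was 2.46 circRNAs per host gene against 3.03, and 30 of the 61 host genes (49.2%) had 1 circRNA, beside 40.9%. In the members 88 circRNAs (58.7%, 50.3 to 66.6) shared an end with another of the same gene, beside 61.7% (60.9 to 62.5).

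Of the 150 member circRNAs 63 were listed in both libraries (42.0%, 34.0 to 50.3), beside 43.9% (43.1 to 44.7) of the others. The 48 listed in the control alone had up to 10 reads, and the 39 listed in the bone cancer pain library alone had up to 7. Listing followed the reads: 1 of 71 members with 2 to 4 reads was in both libraries (1.41%), 13 of 29 with 5 to 9 (44.8%), 12 of 13 with 10 to 19 (92.3%) and all 37 with more. For the other circRNAs the shares in the first 3 of these ranges were 3.97%, 52.9% and 88.1%. No fold is given for a circRNA that was listed in 1 library only.

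The rule covers part of the organelle, so a list of 230 other nuclear genes of mitochondrial proteins, written from general knowledge, was read in the same way. Of these 104 had a circRNA, with 1786 and 1583 reads in sum (0.93, 0.87 to 1.00). Of 59 with 10 or more reads, 9 were lower (15.3%), 7 higher (11.9%) and 43 within 2-fold; their median log2 ratio was -0.13. The highest with 20 or more reads were HADHB, the thiolase subunit of the trifunctional protein of fatty acid oxidation (7 and 26 reads; 3.92, 1.66 to 10.7), NARS2, the mitochondrial asparaginyl-tRNA synthetase (7 and 17; 2.56, 1.01 to 7.30), and DHTKD1, an oxoadipate dehydrogenase related to OGDH (16 and 38; 2.50, 1.36 to 4.81). The lowest were FASTKD1, a mitochondrial RNA-binding protein (19 and 4; 0.22, 0.055 to 0.67), TRIT1, which modifies tRNA (29 and 11; 0.40, 0.18 to 0.82), and the malic enzyme ME3 (21 and 9; 0.45, 0.18 to 1.03). In the fatty acid oxidation group of this list, 5 genes had 70 and 62 reads in sum (0.93, 0.65 to 1.33), beside 0.39 (0.22 to 0.68) for CPT1A, ACADM and the other members of that role. The citric acid cycle, amino acid and one-carbon group stood at 0.98 (0.88 to 1.10). For 2 groups of the list the interval excluded 1: import and inner membrane, with 134 and 84 reads (0.66, 0.50 to 0.87), and translation and RNA, with 278 and 206 (0.78, 0.65 to 0.94). The first lay below 1 where the import symbols among the members were at 1.09 (0.89 to 1.34). The remaining 6 groups lay between 0.47 (iron and haem, 20 and 9 reads) and 1.19 (DNA and transcription, 23 and 26), each with an interval that includes 1.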

How the data were processed

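The deposited table lists 1 value per circRNA for each of 2 libraries, control and bone cancer pain. Per the labels' protocols, ribosomal RNA was removed and linear RNA digested by RNase R (16 units, 15 minutes, 37 °C). CASAVA 1.8, BWA and rn6 are named in the submitters' processing notes with no role, and neither a circRNA caller nor its threshold is named. The authors' deposited values, headed TPM, were read as RPM, because 100% of those above the placeholder of 0.001 were whole numbers of reads (tolerance 0.001) at 1 fixed step in each library. Dividing by the step gave reads; the lowest listed value was 2, and the placeholder was taken as 0.

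Host sums used rows with 1 name, leaving out rows with several (2082), among them 19 that hold a member's name (84 control and 87 bone cancer pain reads). Ratios of library shares have exact conditional binomial intervals, shares exact binomial (Clopper-Pearson) and sums exact Poisson ones. The interval of the median over member host genes comes from their ranked values. A host gene with no circRNA listed in both libraries gets no ratio. Span is end minus start plus 1. Named were host genes with 20 or more reads or past 2-fold with 10 or more, circRNAs with 20 or more reads (positions from 30), the leading gene of each class, and the 3 highest and 3 lowest of the other list. One gene that this takes in is counted in sums but not reported here. Other genes and circRNAs with fewer reads were named after their values were seen. Members, classes and lists were chosen with earlier results of these data known. The call and the intervals were tested on simulated data. Other settings were scalings, read minimums, reads added, a ratio of 1.5 and subsets of circRNAs or genes. To keep to what can be printed for human identifiers, 1 circRNA was left out. Computations used scipy 1.17.1 and numpy 2.4.6 with pandas 2.3.3 under Python 3.11.15; plots used matplotlib 3.10.9. Exon and intron annotation, and sequences at the junctions, were not used here.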

Additional observations from a re-analysis of the deposited data

How the results depend on the processing

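Neither library had a replicate, and no call here has been repeated. No paired analysis was possible because each group had 1 library and no test was made. Rescaling by the median of ratios (a log2 shift of 0.076) or by TMM (0.013) left every class ratio within its interval. The count of member host genes at least 2-fold higher, 4 of 33 as reported, was 8 of 45 with a minimum of 5 reads. It was 2 of 25 with a minimum of 20 and 15 of 61 with none. With circBase identifiers only it was 2 of 27, and with circRNAs listed in both libraries only 2 of 29. Over all host genes the count was 403 of 3037 as reported. In the same order it was 616 of 3831, 211 of 2234, 1130 of 4992, 285 of 2435 and 264 of 2600. The count at least 2-fold lower, 6 of 33 as reported, was 16 of 61 with no minimum. It was 3 of 29 with circRNAs listed in both libraries only and 12 of 33 at a ratio of 1.5. Over all host genes it was 431 of 3037 as reported, and in the same order 1248 of 4992, 290 of 2600 and 762 of 3037. The counts over all host genes thus rose and fell with those of the members at the settings listed. At a ratio of 1.5, however, the members' higher count stayed at 4 of 33, while 711 of 3037 host genes were higher. With a minimum of 20 reads, 4 of 25 members and 216 of 2234 host genes were lower. With circBase identifiers only, 6 of 27 members and 350 of 2435 host genes were lower. For single circRNAs, 16 were higher and 19 lower with a minimum of 5 reads, and 5 lower with a minimum of 20. These single-circRNA counts have no background beside them here. The alternatives themselves test more or fewer features, which moves these counts.

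With circBase identifiers only, the members' share was 0.842% for control and 0.651% for bone cancer pain; without the member circRNA with the most reads, they took 0.857% of control reads and the ratio of all members was 0.86. Without its leading circRNA the pyruvate and citric acid cycle ratio was 0.86 and that of calcium uptake 1.22, which was 1.42 with circBase identifiers only. Chosen after seeing the data, leaving out the host gene with the most reads (not reported for calcium uptake) gave 0.35 for complex IV, 3.37 for import (also with TIMMDC1 under complex I), 0.75 for the pyruvate and citric acid cycle and 0.62 for the proteases. The import value of 3.37 rested mostly on genes listed in the bone cancer pain library alone. PDHX turned from 2.31 to 0.75 without its leading circRNA. No member was IDH1, ATP5S or ATP5SL, so leaving them out changed nothing.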
